A study of Mus musculus with 30 samples.

Results

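The transcripts described here encode 10 proteins that act on N6-methyladenosine (m6A), the methyl mark on adenosines of messenger RNA, after it has been written. Of these, 8 are readers, which bind m6A or m6A-containing RNA, and 2 are erasers, which take the methyl group off. Members were chosen by gene name, as every row of the 15 deposited m6A peak lists whose Ensembl gene matches Ythdf1, Ythdf2, Ythdf3, Ythdc1, Ythdc2, Igf2bp1, Igf2bp3, Hnrnpa2b1, Fto or Alkbh5. All 10 had a called bin in at least 1 list, out of 13765 genes with one. A bin is a called window of 100 nt within a gene. The 10 genes held 68 distinct bins of 62139 and 249 of the 204208 rows.

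The lists come from mouse embryonic stem cells of the C57BL/6 strain, grown on gelatin with serum and leukemia inhibitory factor. The 5 lines were wild type (WT), a METTL14 knockout (KO) and 3 rescues of the knockout. The rescues carried METTL14 again (KO+WT) or either of 2 METTL14 proteins with changed arginines. These are named 5RK and 13RK in the labels (KO+5RK and KO+13RK). All 3 rescue lines thus share the knockout background, and WT does not. The labels do not give the number of clones behind a line or how the rescue proteins were expressed. Each line has 3 replicate lists from RNA pulled down with an m6A antibody. Whether replicates were separate cultures is not stated, so a p-value below covers the spread among these lists, which may be technical, and nothing wider.

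Most m6A on messenger RNA is written in the nucleus by a complex in which METTL3 holds the active site and METTL14 helps to bind RNA. The YTH proteins hold the methylated base in a pocket of their YTH domain. YTHDF1, YTHDF2 and YTHDF3 act in the cytoplasm, where YTHDF2 recruits the CCR4-NOT deadenylase to methylated RNA, while YTHDC1 acts in the nucleus and YTHDC2 is an RNA helicase needed in meiosis. IGF2BP1 and IGF2BP3 are KH-domain proteins that stabilise target RNA, and HNRNPA2B1 is an abundant nuclear ribonucleoprotein. FTO and ALKBH5 are iron-dependent dioxygenases of the AlkB family. Their own messenger RNAs can carry the mark as well, and the lists report that and not the level of the RNA or protein.

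List length differed between the lines and sets the scale for every count. The lists held 22217 to 23164 bins in WT, 6328 to 8593 in KO, 14187 to 17185 in KO+WT, 11174 to 13013 in KO+5RK and 9588 to 10980 in KO+13RK. Read depth is unknown, so a missing call does not show missing m6A or a missing transcript. Of 10 stem cell markers, 9 had a bin in some list, and Esrrb and Tfcp2l1 had one in all 15. Tbx3 had one in every list but those of KO, and Lin28a in 3 WT, 1 KO+WT and 3 KO+13RK lists. Pou5f1 had none in WT and was called in 6 lists, and Dppa5a was at 0 throughout. Bins in 7 fibroblast markers summed to 24 to 31 per WT list and to 0 to 4 per list of the other lines. Most lay in the fibronectin gene Fn1, with 25.3 ± 4.04 bins in WT (SD, n = 3), while Col1a2, Col3a1 and Postn were at 0 in every list. Col1a1 was called in 2 WT and 1 KO list, and Vim in 2 WT, 1 KO, 1 KO+WT and 2 KO+13RK lists. Thy1 was called in 1 KO+WT and 1 KO+13RK list. The marker difference, most of it in Fn1, stands beside each WT comparison below, and its part in them was not tested. In such bulk samples fewer cells of a type, less RNA per cell and less m6A on that RNA cannot be told apart.

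Together the 10 transcripts had 25, 23 and 24 bins in the WT lists and 12, 18 and 10 in the KO lists. The KO+WT lists had 18, 23 and 15, the KO+5RK lists 14, 17 and 15, and the KO+13RK lists 9, 8 and 18. WT and KO did not overlap, whereas KO overlapped all 3 rescue lines. The drop from WT to KO was smaller than that of the lists as a whole. The members made up 0.106% ± 0.00376 of the bins of a WT list and 0.173% ± 0.0508 of a KO list (SD, n = 3 each). With every list cut to its 6328 bins of smallest deposited p, the length of the shortest list, the members had 9.0 ± 2.0 bins in WT and 11.3 ± 3.06 in KO (SD, n = 3). The lower number in KO was thus seen at full list length and not in these shortened lists.

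**Figure D1:**
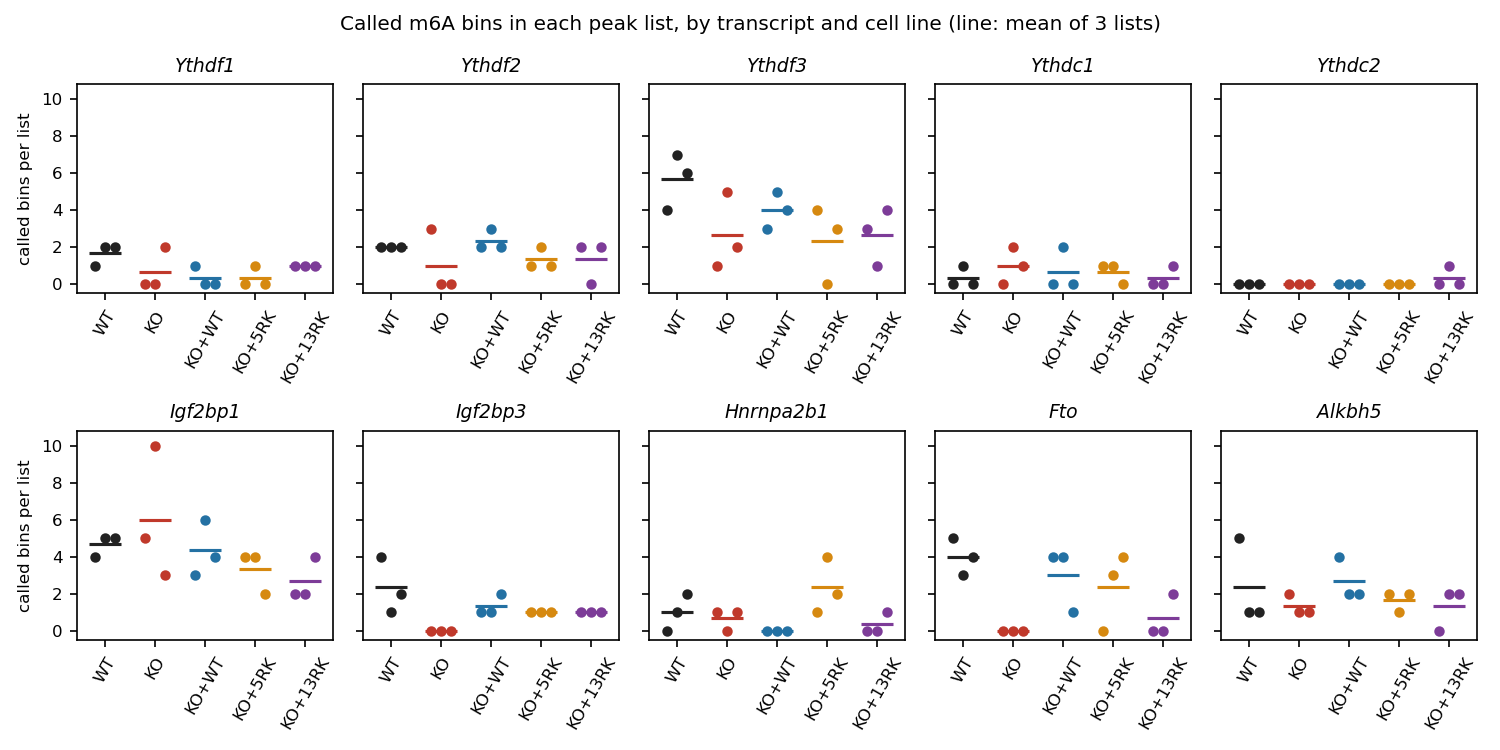
Number of called 100-nt bins (vertical axis) in each of the 15 lists for the 10 transcripts, by cell line; each point is a list and each bar the mean of 3. Fto and Igf2bp3 sit at 0 in all 3 KO lists, whereas Igf2bp1 reaches 10 bins in 1 KO list.

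Calls on the members were about as repeatable as calls in general. Of the 68 bins, 29 (42.6%) were called in a single list and 28 (41.2%) in 3 or more, against 44.0% and 39.9% of all bins. By the authors' enrichment value, a score whose scale is not given, member rows were weak. Their median percentile within a list was 32.4, and 34.5% of them had a value under 1 against 17.4% of all rows. The percentile differed between transcripts, from a median of 7.93 for Ythdf1 and 18.6 for Alkbh5 to 49.5 for Fto, 60.1 for Igf2bp3 and 68.0 for Ythdc1, with the lone Ythdc2 row at 82.8.

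**Figure D2:**
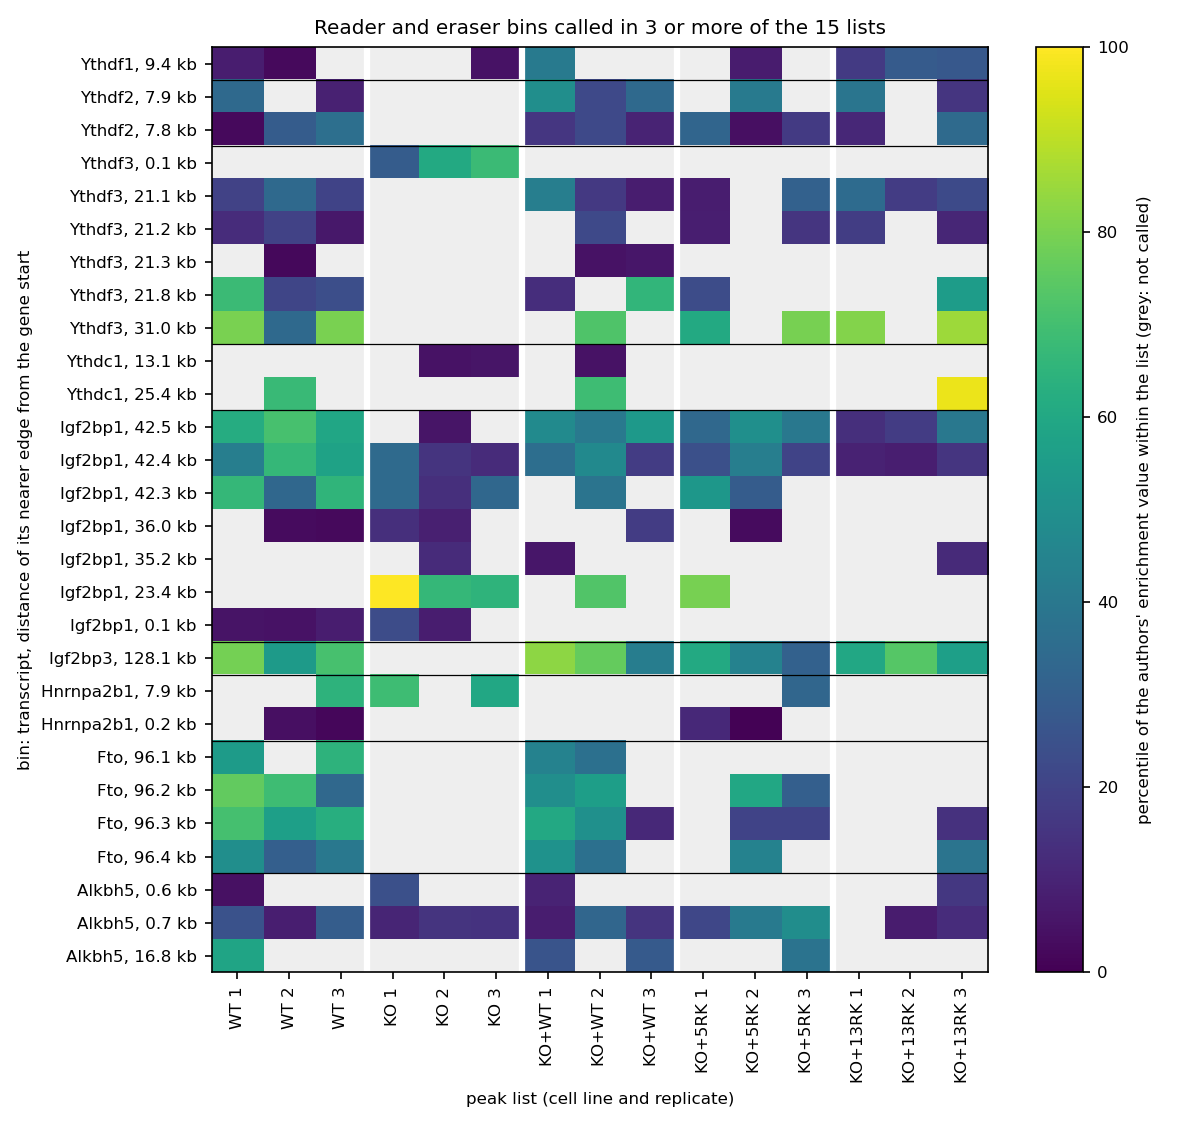
The 28 bins called in 3 or more lists (rows, with distance from the gene start in kb) across the 15 lists (columns); colour is the percentile of the authors' enrichment value within the list, and grey means not called. The Igf2bp3 bin is coloured in every column but the 3 of KO, and the first Ythdf3 bin in those 3 only.

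The design puts a pair of questions to these bins: which depend on METTL14, and which return with each METTL14 protein. For the first, a bin was counted as lost when called in all 3 WT lists and in no KO list. Of the 14 member bins called in all WT lists, 9 were lost (64.3%), against a background of 80.2% over all bins. They were 4 bins of Ythdf3, 3 of Fto and 1 each of Ythdf2 and Igf2bp3. In the reverse direction 2 of 5 member bins called in all KO lists were gained, in Ythdf3 and Igf2bp1, against 26.2% of all bins. In lists of equal length 2 member bins were lost, in Fto and Igf2bp3, and 1 was gained, in Ythdf3. An exact test of 3 lists against 3 cannot go below p = 0.1, so these counts carry no p.

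A test that can pass set the 3 KO lists against the 12 lists of the lines with a METTL14 protein, by a two-sided Fisher's exact test per bin adjusted over 24770 bins (Benjamini-Hochberg). It called 4.76% of all bins less often in KO and 1.05% more often. Of the 28 member bins tested, 1 was called less often, in Igf2bp3. The Ythdf3 bin described next passed the threshold in the other direction. It met the filter of a call in 3 or more lists through its KO lists alone, as did every bin called more often in KO, so its p is given as a description and supports nothing. Both bins carried the smallest p that 3 against 12 lists can give, 0.0022, with an adjusted p of 0.0378 by Fisher's exact test. That adjusted p passes only with all 3 KO lists and all tied bins, and without KO replicate 1, 2 or 3 the test called 0 bins in the whole series. Both bins also fall short of the threshold with no filter on lists (adjusted Fisher p = 0.0948) and with lists permuted within replicate numbers (0.138). The Igf2bp3 bin falls short as well when only bins with a deposited q of 0.005 or less are kept (adjusted Fisher p = 0.0952). The same holds when only those whose enrichment value reaches the median of all rows are kept (adjusted Fisher p = 0.515). The Ythdf3 bin was not tested in these 2 settings. Its call in KO replicate 1, with a q of 0.028 and a value of 1.05, drops out, which leaves too few lists for the filter. In lists of equal length both passed, with an adjusted Fisher p of 0.0254. On the number of bins per gene, an exact permutation test of 3 KO lists against 12 called 0 of 9852 genes, while 1510 of them (15.3%) had a raw p under 0.05. Igf2bp3 was the member among those.

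Ythdf3, whose protein acts with YTHDF1 and YTHDF2 in the cytoplasm, had a bin that all KO lists shared and no other line had. That bin, on chromosome 3 at 16183213 to 16183312 (GRCm38, plus strand), 65 nt after the start of the RefSeq gene, was called in KO replicates 1, 2 and 3 and in no other list. Its enrichment values were 1.05, 1.46 and 1.62, at percentiles of 29.2, 60.8 and 68.2 of their lists. The bin that follows it was called in KO replicate 2 alone. A place near the gene start was not particular to Ythdf3. Over the whole series, 243 bins called more often in KO could be placed in a RefSeq gene. Of these, 71 (29.2%) lay within 500 nt of its start, against 6.79% of all tested bins. Those bins entered the test through their KO lists alone, so the share is a description and supports nothing.

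The remaining Ythdf3 bins went both ways. Counting the bin that follows the start bin, 4 were called in a single KO list and no other line, and the most shared ones were missing from KO. Between 16204213 and 16204712, about 21 kb into the gene, 5 touching bins were called in all lists of WT, KO+WT and KO+13RK, in 2 of KO+5RK, and in 1 KO list through 1 bin. The first of them, 16204213 to 16204312, was called in 11 of the 12 lists with a METTL14 protein, missing from KO+5RK replicate 2, and in no KO list (adjusted Fisher p = 0.0911). A bin nearer the 3′ end, at 16214113 to 16214212 and 2825 nt from the gene end, was called in 3 WT, 1 KO+WT, 2 lists of KO+5RK and 2 of KO+13RK, and in no KO list. It was the strongest of the shared Ythdf3 bins, with a median percentile of 79.6. Per gene Ythdf3 had 4, 7 and 6 bins in WT, 1, 5 and 2 in KO, 3, 5 and 4 in KO+WT, 4, 0 and 3 in KO+5RK, and 3, 1 and 4 in KO+13RK. WT and KO overlap in this count, in which bins missing inside the gene and bins found at its start or elsewhere are added together. Its difference between KO and the other lists was not called (exact permutation test, adjusted p = 0.860), and in lists of equal length it turned from 1.00 bin lower to 1.00 bin higher in KO.

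**Figure D3:**
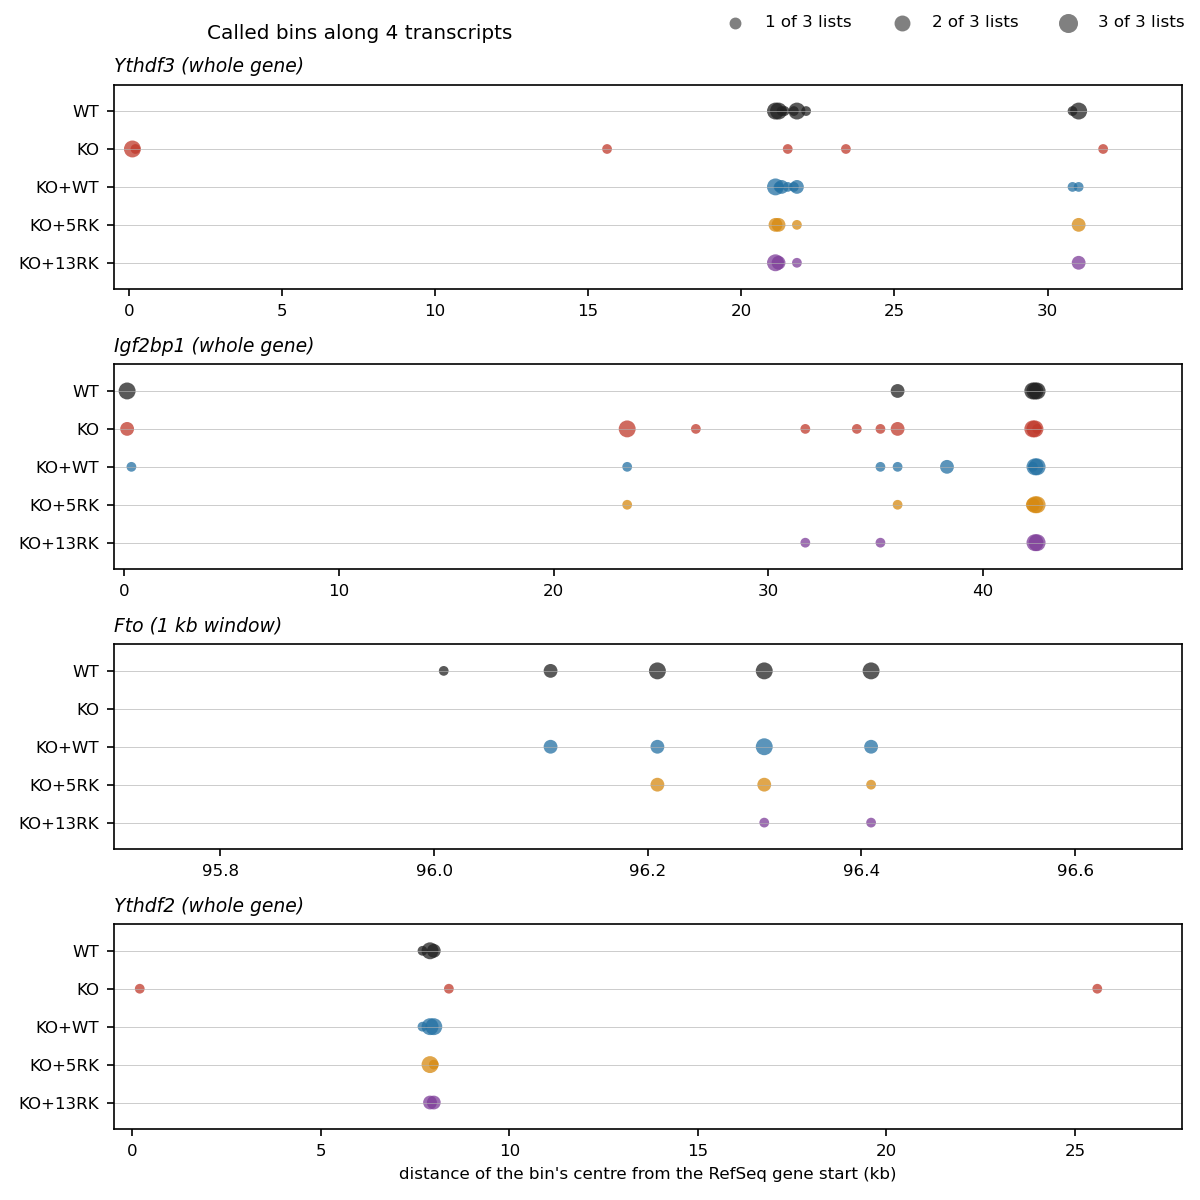
Called bins along Ythdf3, Igf2bp1, a 1 kb window of Fto, and Ythdf2; the horizontal axis is distance from the RefSeq gene start in kb, rows are the lines, and dot size is the number of the line's 3 lists with the bin. Ythdf3 has a dot near 0 in the KO row only, and the KO row of Fto is empty.

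Ythdf2 and Ythdf1, the other cytoplasmic YTH readers, had fewer bins. Ythdf2 had 2, 2 and 2 bins in WT, 3, 0 and 0 in KO, 2, 3 and 2 in KO+WT, 1, 2 and 1 in KO+5RK, and 2, 0 and 2 in KO+13RK. Its main stretch, on chromosome 4 at 132204213 to 132204412 on the minus strand, was called in 3 WT, 3 KO+WT, 3 lists of KO+5RK and 2 of KO+13RK, and in no KO list. The bin at 132204313 to 132204412 was called in 11 of 12 lists with a METTL14 protein, missing from KO+13RK replicate 2 (adjusted Fisher p = 0.0911). Without that list the test called 2 member bins less often in KO in place of 1. It also called 2 without KO+5RK replicate 2, the list that lacks the Ythdf3 bin at 16204213 and holds this Ythdf2 bin. The 3 KO bins of Ythdf2 lay elsewhere, all in replicate 1, among them 1 that lay 144 nt from the gene start. Ythdf1 had 1, 2 and 2 bins in WT, 0, 0 and 2 in KO, 1, 0 and 0 in KO+WT, 0, 1 and 0 in KO+5RK and 1 in each KO+13RK list. Its most shared bin, on chromosome 2 at 180911478 to 180911577, was called in 8 lists, all 3 of KO+13RK among them, at a median percentile of 12.5. Ythdf1 calls thus mostly sat low in their lists, and WT and KO+13RK were the lines with a call in every list.

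Ythdc1 had scattered calls and Ythdc2 a single one. Ythdc1, the nuclear reader, had a bin in 1 WT, 2 KO, 1 KO+WT, 2 lists of KO+5RK and 1 of KO+13RK, and none of its 5 bins was called in all lists of a line. Its KO bins lay on chromosome 5 at 86817122 to 86817221, called in 2 KO lists and 1 KO+WT list, and 242 nt from the gene start in 1 KO list. Ythdc2 had a single bin, in KO+13RK replicate 2, on chromosome 18 at 44860447 to 44860546.

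Igf2bp1, whose protein binds and stabilises messenger RNA, was the member called in all 15 lists. It had 4, 5 and 5 bins in WT, 5, 10 and 3 in KO, 3, 6 and 4 in KO+WT, 4, 4 and 2 in KO+5RK, and 2, 2 and 4 in KO+13RK. The KO lists overlapped every other line, and KO replicate 2 held the most bins. The difference was 2.25 bins per list higher in KO (exact permutation test, adjusted p = 0.468), and 0.250 higher without KO replicate 2. At a deposited q of 0.005 or less the difference turned to -0.58 bins per list.

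The steady part of Igf2bp1 was a stretch of 3 bins on chromosome 11 at 95963364 to 95963663, minus strand and about 6 kb from the gene end. It was called in all lists of all lines, and its middle bin, 95963464 to 95963563, was found in every one of the 15 lists. That bin had enrichment values of 1.33, 1.69 and 1.54 in WT, 1.10, 0.93 and 0.89 in KO, 1.20, 1.31 and 1.00 in KO+WT, 1.06, 1.25 and 0.98 in KO+5RK, and 0.87, 0.84 and 0.97 in KO+13RK. These are the authors' values and their scale across lists is not given, so no comparison was made. The neighbour at 95963364 was called in all 12 lists with a METTL14 protein and in 1 KO list (adjusted Fisher p = 0.206), and it overlaps the microRNA gene Mir3063, which has a called bin of its own on that strand. The neighbour at 95963564 was called in 3 WT and 3 KO lists but in 1 KO+WT, 2 lists of KO+5RK and 0 of KO+13RK.

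Other Igf2bp1 bins differed by line. The bin at 95982464 to 95982563, inside the gene, was called in all KO lists, in 1 KO+WT and 1 KO+5RK list and in no WT list (adjusted Fisher p = 0.163). Its value in KO replicate 1 lay at the percentile of 99.7. The bin at 96005764 to 96005863, 81 nt from the gene start, was called in 3 WT and 2 KO lists and in no rescue list. It was the member bin lost from WT to KO+WT, 1 of 14, against 15.3% of all bins.

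Igf2bp3, the paralogue, had no call in KO, where Igf2bp1 was called in every list. It had 4, 1 and 2 bins in WT, 0 in each KO list, 1, 1 and 2 in KO+WT, and 1 in each list of both mutants. The bin on chromosome 6 at 49087224 to 49087323, minus strand and 2006 nt from the gene end, was called in each of the 12 lists with a METTL14 protein and in no KO list. Its enrichment values were 1.95, 1.5 and 1.78 in WT, 2.00, 1.79 and 1.26 in KO+WT, 1.49, 1.27 and 1.09 in KO+5RK, and 1.42, 1.61 and 1.46 in KO+13RK, at a median percentile of 60.4. It was thus the 1 member bin that both arginine mutants carried in every list and no KO list had. WT lists also called its direct neighbours, in 1 and 2 lists, and no rescue list did. In bins per gene Igf2bp3 was 1.42 lower in KO than in the other lists (exact permutation p = 0.0440, adjusted p = 0.296), lower in 3 of 3 KO lists. In lists of equal length it was 1.00 lower with an adjusted exact permutation p of 0.0397. That setting called 206 genes with fewer and 144 with more bins in KO, where full lists gave 0, so the pass is not particular to Igf2bp3. The 5 bins of Igf2bp3 lie within the RefSeq span of Malsu1. How reads were assigned to overlapping genes is not stated in the labels, so reads of the 2 genes cannot be told apart.

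Hnrnpa2b1 was called most in KO+5RK, with 1, 4 and 2 bins there. It had 0, 1 and 2 in WT, 1, 0 and 1 in KO, 0 in each KO+WT list and 0, 0 and 1 in KO+13RK. None of its 5 bins was called in all 3 KO+5RK lists, so no bin was gained by the rule used. The bin nearest the gene start, on chromosome 6 at 51469733 to 51469832, was called in 2 WT and 2 KO+5RK lists, and the bin at 51462033 to 51462132 in 1 WT, 2 KO and 1 KO+5RK lists. The start bin was weak, with percentiles from its 4 lists at a median of 2.78.

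Bins of 2 members meet a RefSeq promoter window (GRCm38.p6), among the 7 members that have such a window. A window ends 50 bases after a transcript start, which for these 2 genes lies inside the gene span that distances are counted from, so the same bins lie 216 nt (Hnrnpa2b1) and 242 nt (Ythdc1) from the start of that span. The first 30 bases shared by bin and transcribed part are shown because these are the called positions nearest a start for which letters were read.
Hnrnpa2b1, chr6:51469803-51469832, minus strand, bases 14 to 43 after the start of its window's transcript: ccggtcccgtgtgcaggagctcctttgcgg
Ythdc1, chr5:86804266-86804295, plus strand, bases 1 to 30 after the start of its window's transcript: gcgccgcccggcgtcgccatctgtgtctct
The letters GGAC, a common core of sites methylated by the METTL3 complex, and the shorter GAC were searched on the RNA strand, and neither string holds a match, so nothing is in capitals. At the same positions of all 32851 promoter windows, GGAC occurs in 11.4% for the first interval and 11.2% for the second, and GAC, which every GGAC contains, in 31.8% and 32.4%. The absence says only that these letters are not in these windows. The sequence of the other bins was not used here.

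Fto, the first RNA demethylase described for m6A, carried a compact domain of calls that was empty in KO. It had 5, 3 and 4 bins in WT, 0 in each KO list, 4, 4 and 1 in KO+WT, 0, 3 and 4 in KO+5RK, and 0, 0 and 2 in KO+13RK. Every WT and KO+WT list thus had a Fto bin, whereas the lists of both mutants ran from 0 upward. All but 2 of its bins formed 1 stretch of 500 nt on chromosome 8 at 91409326 to 91409825, plus strand, 95959 nt into the gene. The stretch was called in 3 WT, 3 KO+WT, 2 lists of KO+5RK and 1 of KO+13RK, and in no KO list. Its bin at 91409626 to 91409725 had enrichment values of 1.74, 1.53 and 1.62 in WT and 1.49, 1.34 and 0.93 in KO+WT. In the mutants it was called at 1.01 and 0.98 in KO+5RK replicates 2 and 3 and at 0.96 in KO+13RK replicate 3. That bin was not called by the test of KO against the other lists (adjusted Fisher p = 0.242). Per gene Fto was 2.5 bins lower in KO (exact permutation p = 0.0835, adjusted p = 0.393), lower than the mean of the other lists in 3 of 3 KO lists.

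Alkbh5, the nuclear demethylase, kept its main call without METTL14. It had 5, 1 and 1 bins in WT, 2, 1 and 1 in KO, 4, 2 and 2 in KO+WT, 2, 1 and 2 in KO+5RK, and 0, 2 and 2 in KO+13RK. The ranges of all lines overlap. The bin on chromosome 11 at 60538382 to 60538481, plus strand and 699 nt after the gene start, was called in 14 of 15 lists, missing only from KO+13RK replicate 1. Its enrichment values were 1.13, 0.93 and 1.19 in WT and 0.86, 0.93 and 0.92 in KO, with a median percentile of 15.0 over its lists. A second stretch near the 3′ end, at 60554382 to 60554581, was called in 1 WT, 2 KO+WT and 2 KO+5RK lists and in no KO or KO+13RK list. Of the erasers, Fto thus had no bin in KO, while the main Alkbh5 bin was called in all 3 KO lists, and the difference between them was not tested.

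Calls seen in KO alone were common and mostly single. Of the 26 member bins with a KO call, 12 (46.2%) were called in no other line, against 43.5% over all bins. Apart from the Ythdf3 start bin, each of the other 11 was called in a single KO list, 6 of them in replicate 2. They lay in Ythdf3 (4), Ythdf2 (3), Igf2bp1 (2), Ythdf1 and Ythdc1, and their enrichment percentiles ran from 18.9 to 96.2 with a median of 80.5. The values thus ran from low to high in their lists, and no second KO list repeated these calls. Their deposited q-values ran from 0.0019 to 0.0437.

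Putting wild-type METTL14 back asked whether the pattern returns. Of the 8 member bins called in all KO+WT lists, 5 were in no KO list (62.5%), against 71.5% of all bins, and 1 of 5 bins called in all KO lists was in no KO+WT list, against 23.5%. Those 5 lay in Ythdf2 (2), Ythdf3, Igf2bp3 and Fto, and the bin gained in KO was the start bin of Ythdf3. Without KO+WT replicate 3 the rule counted 8 bins, and in lists of equal length 2. For the bin gained in KO, the count was 2 without KO replicate 2 or 3, and 3 without KO+WT replicate 2. From WT to KO+WT no member bin was gained, against 2.36% of all bins called in the KO+WT lists. Without KO+WT replicate 1 that count was 1, and the 1 lost bin became 3 without WT replicate 1, 2 without WT replicate 2 and 4 without KO+WT replicate 2.

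The 9 bins lost from WT to KO were then looked up in each rescue list. Those of KO+WT held 7, 8 and 5 of them, KO+5RK lists 6, 5 and 7, and KO+13RK lists 5, 2 and 8. The mean share was 74.1% ± 17 for KO+WT, 66.7% ± 11.1 for KO+5RK and 55.6% ± 33.3 for KO+13RK (SD, n = 3 lists). All 9089 bins of this kind gave 62.3% ± 2.69, 48.9% ± 6.11 and 36.9% ± 3.57. The member values of the 3 lines overlapped, and the order of their means did not hold under other settings. With scores at or above the median KO+5RK was at 11.1% and KO+13RK at 33.3%, at a deposited q of 0.005 or less both were at 38.9%, and in lists of equal length KO+WT and KO+5RK were both at 83.3%. At full length and unmerged, KO+13RK replicate 3 called more of the 9 bins than any KO+5RK list, and without it the KO+13RK mean was 38.9%. The KO+5RK mean was 52.8% without WT replicate 2. By bin, the one in Igf2bp3 was called in all 9 rescue lists, the Ythdf2 bin and the Ythdf3 bin at 16204213 in 8 each, and the Fto bins at 91409526, 91409626 and 91409726 in 4, 6 and 4.

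**Figure D4:**
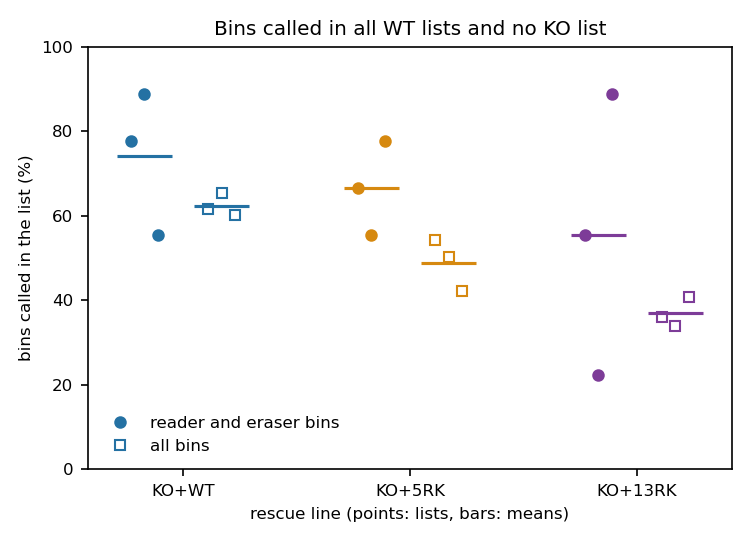
Percentage (vertical axis) of the bins lost from WT to KO that each rescue list called; filled circles are the 9 reader and eraser bins, open squares all 9089 such bins, bars are means of 3 lists. The 3 KO+13RK circles spread from 22.2% to 88.9%, so the lines overlap.

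Changing the arginines of METTL14 asked whether the protein then restores less. From KO+WT to either mutant 0 of 8 member bins were lost by the rule of 3 lists against 0, against 7.6% of all bins for KO+5RK and 16.8% for KO+13RK. None of 5 was gained in either, against 2.98% and 2.59%. Between KO+5RK and KO+13RK none of 5 was lost and none of 5 gained, against 7.76% and 3.28%. With so few bins called in all 3 lists, leaving out 1 list gave up to 2 lost and 1 gained. That occurred without KO+WT replicates 1, 2 or 3, without KO+5RK replicates 1, 2 or 3 and without KO+13RK replicate 3. With calls in 2 or more lists against 0 in place of 3 against 0, 3 member bins were lost in KO+5RK and 5 in KO+13RK.

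Against the 6 lists of WT and KO+WT, the 6 mutant lists had fewer bins on average in Fto (1.5 against 3.50), Ythdf3 (2.5 against 4.83), Igf2bp1 (3.00 against 4.50), Alkbh5 (1.5 against 2.5), Ythdf2 (1.33 against 2.17) and Igf2bp3 (1.00 against 1.83). Hnrnpa2b1 had more (1.33 against 0.500). None was called by the exact permutation test adjusted over 9257 genes. The smallest member p was that of Ythdf3, at 0.0498 unadjusted and 0.324 adjusted in the exact permutation test. In lists of equal length the Ythdf3 difference turned to 0.333 higher in the mutants. That test called 0 genes in all, with 1397 (15.1%) at an unadjusted p under 0.05. Per bin, Fisher's exact test called 0 of 22615 bins, with 893 (3.95%) at an unadjusted p under 0.05 and none of the 23 member bins tested among them. Since WT never lost METTL14 and the mutants' background did, the mutations and the history of the lines cannot be told apart here.

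Related transcripts give the setting, to be read against the 80.2% of all bins lost from WT to KO and the 4.76% of all tested bins called less often in KO. Among 12 RNA adenosine methyltransferase genes and their partners, 14 of the 15 bins that every WT list called were lost in KO, and Wtap, the regulatory subunit, had 5, 5 and 6 bins in WT and 1, 0 and 0 in KO (exact permutation test, adjusted p = 0.400). Mettl16 and Zcchc4 had 3 lost bins each. Fisher's exact test called none of their 33 tested bins less often in KO and 1 more often, in Rbm15, against 1.05% of all tested bins. Among 12 other proteins reported to bind m6A RNA, 23 of 41 bins were lost, led by G3bp1 and Prrc2a with 6 each and Eif3a with 4. The test called 4 of their 71 bins less often, 2 each in G3bp1 and Prrc2a. Of 7 other AlkB homologues, 6 had a bin, all 3 bins that every WT list called were lost, and 1 of 8 tested bins was called less often, in Alkbh1. Among 14 partners of the YTH proteins, 13 of 20 bins were lost, among them 3 each in Cnot1 and Cnot2 of the CCR4-NOT complex and 2 in the splicing factor gene Srsf10, and none of 50 was called. In 6 paralogues of the hnRNP A/B family 5 of 8 were lost, 4 of them in Hnrnpdl, and 3 of 19 were called less often, in Hnrnpdl and Hnrnpa0. No gene of these lists was called on bins per gene.

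By bins per list over the 15 lists, the gene most like Fto was Adpgk, with a Pearson's r of 0.929. For Ythdf3 it was Hnrnpl (0.834) and for Igf2bp1 Ppp2ca (0.797), each the highest of 1933 genes with 2 or more bins per list on average. These are descriptions over lists that share their length and line.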

How the data were processed

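Per the labels' protocols, fragmented mRNA was enriched with an antibody to m6A before sequencing. Per the submitters' processing notes, STAR 2.5.3a, kallisto 0.43.0 and the build GRCm38 were used, without roles. Neither the peak caller nor any read depth is stated there.

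The deposited lists, 1 per replicate, give for each 100-nt bin an enrichment score, a p-value and a q-value, all the authors' own. Every deposited q-value was under 0.05. Presence of a bin was compared, and the score was ranked within a list. The raw score was also cut at the same value in all lists, for the share under 1 and for the alternative at the median.

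Gene names matched 99.7% of gene identifiers, and distances were taken to RefSeq gene ends, also on GRCm38. Tested bins and genes had a call in 3 or more lists. The tests, run in SciPy 1.17.1 with pandas 2.3.3, were Fisher's exact test per bin and an exact permutation test on bins per gene, over 455 choices of 3 of 15 lists or 924 choices of 6 of 12, adjusted by Benjamini-Hochberg over all features with a threshold of 0.05. Both were run on simulated lists. Planted bins were absent from the KO or mutant lists and called in every other list, and planted genes were emptied in those lists. Genes were scored there at an unadjusted p under 0.05. Such runs check the code and not the power on these data. The members and gene lists were chosen with earlier results of these data known. Named genes were the 10 members, up to 3 genes of each list with the most bins lost from WT to KO, and the gene most like each member with 2 or more bins per list. Alternatives were a q of 0.005, a score at or above the median of 1.36, equal list lengths, merged bins, no filter, a rule of 2 lists, a replicate block and leaving out each list. Input libraries were not analysed here.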

Additional observations from a re-analysis of the deposited data

How the results depend on the processing

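Counts of member bins moved with the choice of calls, and no setting made a mutant difference pass its test. With a deposited q of 0.005 or less, 0 bins were gained from WT to KO, 0 gained from KO+WT to KO, 0 lost from WT to KO+WT, and 1 lost and 1 gained from KO+5RK to KO+13RK, the shares of lost bins were 38.9% for KO+5RK and 38.9% for KO+13RK, and the Fisher test called 0 less and 0 more often in KO. With scores at or above the median, 3 were lost and 1 gained from WT to KO, 0 lost and 0 gained from KO+WT to KO, 0 lost from WT to KO+WT, the shares were 44.4% for KO+WT, 11.1% for KO+5RK and 33.3% for KO+13RK, and 0 and 0 were called. In lists of equal length, 2 were lost and 1 gained from WT to KO, 2 lost from KO+WT to KO, 0 lost and 1 gained from WT to KO+WT, 1 gained from KO+5RK to KO+13RK, the shares were 83.3% for KO+WT and KO+5RK and 66.7% for KO+13RK, and 1 gene, Igf2bp3, had fewer bins in KO. With touching bins merged, 5 were lost from WT to KO and 3 from KO+WT to KO. With no filter, 0 and 0 were called. At 2 or more lists against 0, 14 were lost from WT to KO, 12 lost and 3 gained from KO+WT to KO, 4 lost and 1 gained from WT to KO+WT, 3 lost and 2 gained from KO+WT to KO+5RK, 5 lost from KO+WT to KO+13RK and 4 lost from KO+5RK to KO+13RK. The causes were not tested.

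Over all bins, 1180 were called less and 260 more often in KO. These became 556 and 134 at the stricter q, 565 and 398 in lists of equal length, and 0 and 0 with scores at or above the median, no filter or the replicate block. In lists of equal length, 206 genes had fewer and 144 more bins in KO, against 0 in full lists.

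With the replicate block, 0 member bins were called less and 0 more often in KO (adjusted permutation p = 0.138). Replicate numbers did not pair the lists: over 30 same-numbered pairs the correlation of deviations ran from -0.690 to 0.469, 9 of them over 0.1, and 2 of 15 lists correlated best with their own number.

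Leaving out 1 list gave 9 to 12 bins lost and 2 to 3 gained from WT to KO, 5 to 8 lost and 1 to 3 gained from KO+WT to KO, 1 to 4 lost and 0 to 1 gained from WT to KO+WT, and 0 to 2 lost and 0 to 1 gained in each comparison with a mutant. Shares ran from 60.6% to 83.3% for KO+WT, 52.8% to 72.2% for KO+5RK and 38.9% to 72.2% for KO+13RK. The Fisher test called 0 to 2 member bins less and 0 to 1 more often in KO.

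Differences in mean bins per list changed sign as follows, none past its adjusted permutation test. For KO minus the others, Igf2bp1 was -0.58 at the stricter q. Ythdf3 was 0.75, Ythdc1 -0.083 and Hnrnpa2b1 0.33 with scores at or above the median. Ythdf3 was 1.00, Hnrnpa2b1 0.50 and Alkbh5 0.67 in lists of equal length. With 1 list left out, Ythdf1 ran from -0.83 to 0.17, above 0 without KO replicate 1 or 2. Hnrnpa2b1 ran from -0.42 to 0.083, above 0 without KO replicate 2 and at 0.030 without KO+5RK replicate 2. For the mutants minus the others, Ythdf1 was 0.33 at the stricter q and in lists of equal length, and Ythdf3 0.33 in the latter. Unknown read depth limits every statement that a bin was not called.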
